A study of Homo sapiens with 6 samples.

Results

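Transcripts of 9 enzymes of nucleotide synthesis were followed in 2 enzalutamide-resistant prostate cancer cell lines treated with inhibitors of HSP70. The genes were taken as a list of names, were matched to Ensembl identifiers, and make up 9 of the 60658 identifiers listed in each library. TYMS, RRM1, RRM2 and TK1 were grouped as dNTP enzymes, CAD and UMPS as pyrimidine enzymes, and PPAT, PAICS and GART as purine enzymes. All 9 were above 0.1 FPKM in all 6 libraries.

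C4-2B MDVR cells, an enzalutamide-resistant derivative of C4-2B that is maintained in 20 µM enzalutamide, and CWR22Rv1 cells, for which no such maintenance is described, were treated for 48 h with DMSO, with 10 µM apoptozole (APO) or with 10 µM VER155008 (VER). Both compounds inhibit the ATPase activity of HSP70. The study asked how HSP70 inhibition changes the transcriptome of cells that no longer respond to anti-androgens. Each condition has 1 library, so no difference could be tested against the spread between replicates, and no p-value or error is given. The source field of the labels names LNCaP-C4-2B and a parental line for the C4-2B MDVR libraries, whose titles name C4-2B MDVR.

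Cells make dNTPs, the building blocks of DNA, from ribonucleotides. Purine rings and pyrimidine rings are first built as ribonucleotides, which also feed RNA synthesis, by separate de novo pathways. Ribonucleotide reductase then removes the 2′ hydroxyl group, and thymidylate synthase makes the base that only DNA carries. Transcripts of the dNTP steps are known to be high in cells that replicate DNA, while the de novo pathways also run in growing cells outside S phase.

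FPKM is the number of fragments scaled to the length of the gene's transcripts and to the size of the library, so that levels can be compared between genes. Libraries are compared by subtracting values of log2(FPKM + 0.1), and a gene enters a comparison when any library of that line has it above 0.1 FPKM. It is called lower or higher past 1.2-fold, a log2 difference of 0.263, which is the fold threshold of the study. Levels of a line are given in the order DMSO, APO and VER, and differences to DMSO in the order APO and VER, with C4-2B MDVR before CWR22Rv1. Both contrasts of a line subtract the same DMSO library, so an error in that library moves them together. Reads from a gene and from an overlapping gene on the opposite strand cannot be told apart here, since no strand setting is stated for the counting.

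The 6 libraries had 17603 to 19376 genes above 0.1 FPKM. Mitochondrial transcripts held 14.8% to 16.4% of all FPKM in the C4-2B MDVR libraries. In CWR22Rv1 cells they held 25.7% with DMSO and with VER but 10.5% with APO. With libraries rescaled to equal sums without mitochondrial genes, the enzymes called lower under APO in that line went from 7 to 9 and their dNTP median from -1.56 to -1.72. All genes called lower went from 8477 to 9786 of 21608 with them. Rescaling to equal sums of all genes (TPM) went the other way, to 6 enzymes, a dNTP median of -1.45 and 7669 of all genes. All 7 prostate epithelial markers were expressed in each library. PECAM1, of endothelium, and KRT5, of basal epithelium, were listed at 0 throughout, and PTPRC, of leukocytes, reached 0.0323 FPKM at most. COL1A1, a fibroblast collagen, lay at 3.32 to 10.8 FPKM, and CHGA, a neuroendocrine marker, was listed at 0 in C4-2B MDVR and at 8.64 to 11.7 FPKM in CWR22Rv1 cells.

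All 9 enzymes had lower values with either inhibitor than with DMSO in both lines, and the dNTP enzymes differed most as a group. Of the 36 values, which are 9 genes in 4 contrasts, 36 were below 0, 33 were past 1.2-fold and 0 were higher past 1.2-fold. With libraries brought to equal sums of FPKM (TPM), GART with APO in CWR22Rv1 cells had a value of 0.001 and the others stayed below 0. In C4-2B MDVR cells 8 of the 9 were called lower with APO, against 35.4% of all genes compared, and 9 of 9 with VER, against 34.9%. In CWR22Rv1 cells 7 of the 9 were called lower with APO, against 39.2% of all genes, and 9 of 9 with VER, against 32.3%. The shares of all genes called higher in these contrasts, in the same order, were 37.7%, 35.6%, 35.6% and 32.1%.

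The groups differed at 2-fold in the deposited FPKM. Of the 16 dNTP values 10 were lower by more than 2-fold, of the 8 pyrimidine values 3, and of the 12 purine values 0. All 3 of the pyrimidine values were those of CAD, and UMPS had none. Among all genes compared, 13.3% with APO and 13.3% with VER were lower by more than 2-fold in C4-2B MDVR, and 16.8% and 8.92% in CWR22Rv1 cells. The split depended on the scaling. With TPM, APO in C4-2B MDVR cells also put TK1 at -1.14, PAICS at -1.07, UMPS at -1.06 and RRM1 at -1.02, past 2-fold. CAD with APO in CWR22Rv1 cells dropped within 2-fold, at -0.95. The share of all genes past 2-fold with TPM was not counted. The mean over the 4 contrasts ran from -2.71 for RRM2 through -1.47 for TK1, -1.35 for TYMS, -1.21 for CAD and -0.93 for RRM1 to -0.72 for PAICS, -0.63 for UMPS, -0.46 for PPAT and -0.45 for GART.

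**Figure D1:**
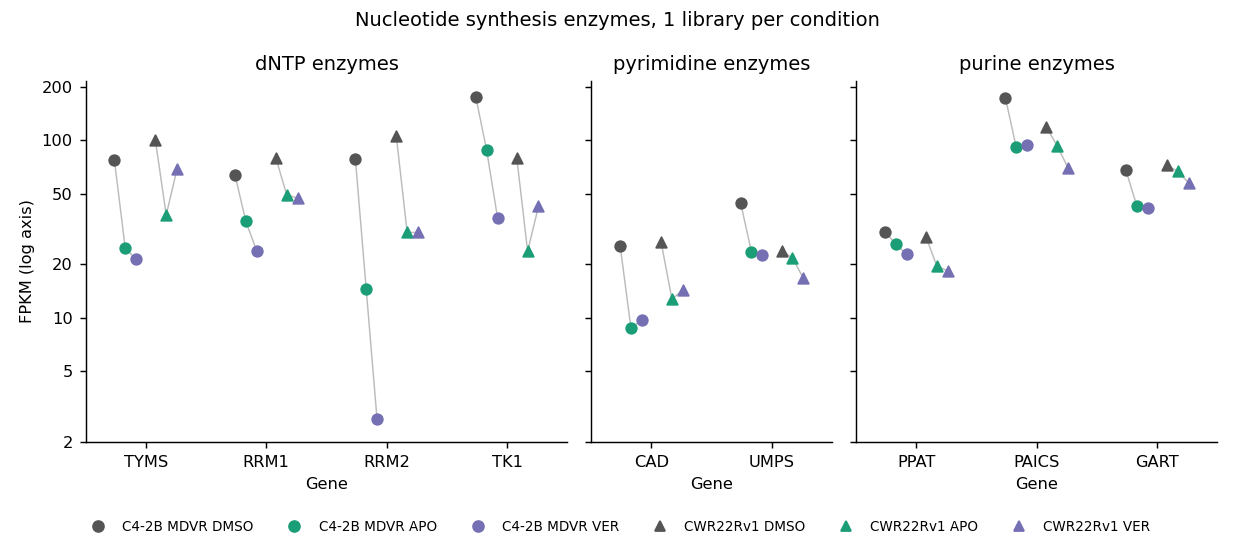
FPKM on a log axis of the 9 enzymes in the 6 libraries, by group, where circles are C4-2B MDVR and triangles CWR22Rv1, grey is DMSO, green APO and purple VER, and lines join the 3 libraries of a line. In each gene the DMSO library is the highest of its line, and RRM2 under VER in C4-2B MDVR cells, at 2.70 FPKM, is the lowest value of all.

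RRM2 encodes the small subunit of ribonucleotide reductase, which holds the radical needed for catalysis and is made in S phase. RRM2 (ENSG00000171848, chromosome 2 of GRCh38 from 10120698 to 10131419, plus strand) was at 78.6 FPKM with DMSO, 14.5 FPKM with APO and 2.70 FPKM under VER in C4-2B MDVR cells, and at 105, 30.2 and 30.2 FPKM in CWR22Rv1 cells. It was the lowest of the 9 in the C4-2B MDVR library with VER, and TK1 and PAICS or PAICS alone were above it in the DMSO libraries. The log2 differences to DMSO were -2.43 for APO and -4.81 for VER in C4-2B MDVR cells, the latter 28.1-fold lower, and -1.80 for each inhibitor in CWR22Rv1 cells. Only 42 of the 20122 genes compared had a value below that of RRM2 under VER in C4-2B MDVR. GENCODE also places a read-through gene on the same strand over RRM2, AC007240.1. It is not among the 60658 identifiers listed in each library and has no value, so reads of the 2 genes cannot be told apart here.

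The stretch just before the RefSeq start site of RRM2 at 10122739 is shown because it carries 3 CCAAT boxes, the motif of the factor NF-Y, in the member with the largest differences. It lies at chr2:10122609-10122729 on the plus strand of GRCh38.p14, with CCAAT in capitals, and sits inside the RRM2 gene model, since longer transcripts start further upstream.
RRM2: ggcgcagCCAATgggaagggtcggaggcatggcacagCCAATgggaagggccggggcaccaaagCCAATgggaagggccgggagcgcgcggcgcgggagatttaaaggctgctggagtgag
Promoter windows of RefSeq, from 250 bases before to 50 bases after a start site, were searched on both strands for CCAAT, for the GC box GGGCGG, for the E-box CACGTG and for 4 strings of the E2F site, TTTCCCGC, TTTGGCGC, TTTCGCGC and TTTGCCGC. All 9 members had at least 1 window, and a gene was counted when any of its windows held the motif. CCAAT was found for 5 of the 9, RRM1, RRM2, TK1, CAD and GART, and for 39.7% of all 27305 genes. Counting both strands, a window of GART held as many CCAAT boxes as the RRM2 stretch shown. GART had the smallest mean difference of the 9, at -0.45, and TYMS, at -1.35, had no CCAAT box. An E2F string was found for 2, TYMS and GART, and for 3.99% of all genes. These matches describe the letters of the windows and are not binding data.

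RRM1 encodes the large subunit of the same enzyme, which holds the active site and the allosteric sites. RRM1 (ENSG00000167325, chromosome 11 from 4094707 to 4138876) was at 64.0, 35.0 and 23.9 FPKM in C4-2B MDVR under DMSO, APO and VER and at 79.4, 49.2 and 47.1 FPKM in CWR22Rv1 cells. It was lower with both inhibitors in both lines, by less than RRM2 in each contrast. Differences to DMSO on the log2 scale, for APO and then VER, were -0.87 and -1.42 in C4-2B MDVR cells and -0.69 and -0.75 in CWR22Rv1 cells. Within a library the ratio of RRM2 to RRM1 does not depend on the scaling between libraries. It was 1.23 with DMSO, 0.414 with APO and 0.113 under VER in C4-2B MDVR. In CWR22Rv1 cells it was 1.33, 0.615 and 0.641. RRM2 was thus the more abundant of the 2 transcripts in both DMSO libraries and the less abundant in all 4 treated libraries.

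The alternative small subunit moved the other way. RRM2B, the subunit that supplies dNTPs for repair and for mitochondrial DNA and is a known target of p53, was at 19.2, 23.1 and 58.6 FPKM in C4-2B MDVR under DMSO, APO and VER and at 10.2, 18.6 and 24.1 FPKM in CWR22Rv1 cells. It differed from DMSO by 0.26 with APO, just within 1.2-fold, and by 1.60 under VER in C4-2B MDVR, and 0.86 and 1.23 in CWR22Rv1 cells. RRM2B made up 19.7% of the summed FPKM of RRM2 and RRM2B with DMSO, 61.4% with APO and 95.6% under VER in C4-2B MDVR. In CWR22Rv1 cells it made up 8.82%, 38.1% and 44.4%. The sum of both was lower with either inhibitor, at 97.8, 37.6 and 61.2 FPKM in the C4-2B MDVR libraries and 115, 48.8 and 54.2 FPKM in CWR22Rv1 cells.

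**Figure D2:**
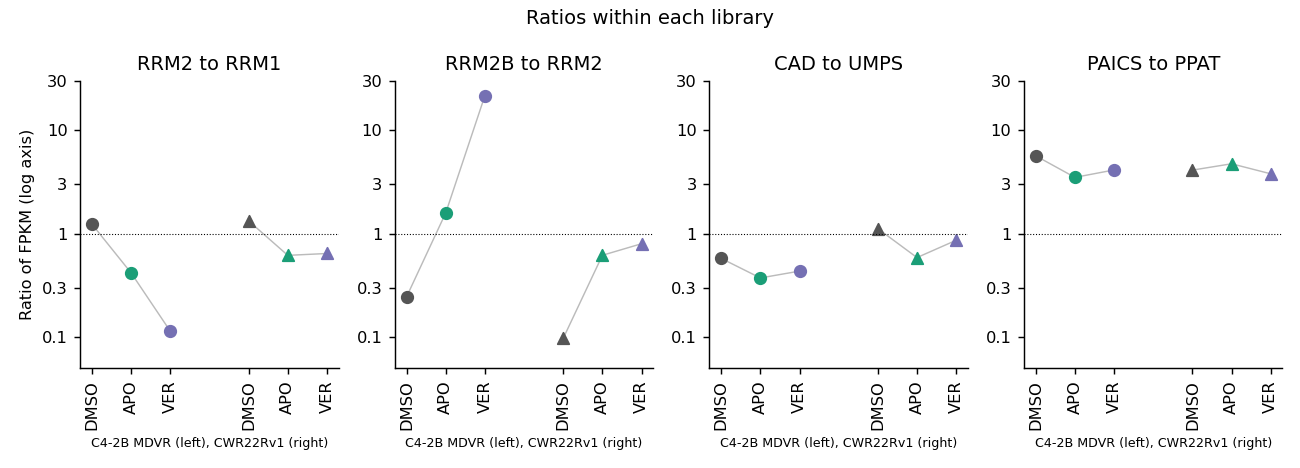
Ratios of FPKM within each library on a log axis, for 4 pairs of genes, with C4-2B MDVR as circles on the left and CWR22Rv1 as triangles on the right of each panel and lines joining the libraries of a line. RRM2 to RRM1 runs from 1.33 down to 0.113 and RRM2B to RRM2 from 0.0967 up to 21.7, while PAICS to PPAT stays between 3.50 and 5.65.

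TYMS encodes thymidylate synthase, which makes dTMP from dUMP. TYMS (ENSG00000176890, chromosome 18 from 657604 to 673578) was at 76.8, 24.6 and 21.3 FPKM in C4-2B MDVR under DMSO, APO and VER and at 99.7, 37.9 and 68.8 FPKM in CWR22Rv1 cells. In C4-2B MDVR cells both treated libraries lay close together, while in CWR22Rv1 cells the VER library lay between the other two. TYMS differed from DMSO by -1.64 and -1.84 in C4-2B MDVR cells and -1.39 and -0.53 in CWR22Rv1 cells. TYMS overlaps ENOSF1 and TYMSOS on the opposite strand. ENOSF1 was at 10.5 to 13.0 FPKM in C4-2B MDVR and at 19.2 to 32.0 FPKM in CWR22Rv1 cells, and TYMSOS was at 24.4 FPKM under VER in C4-2B MDVR cells against 8.35 FPKM with DMSO.

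TK1 encodes cytosolic thymidine kinase, the salvage enzyme that phosphorylates thymidine and peaks in S phase. TK1 (ENSG00000167900, chromosome 17 from 78174075 to 78187233, minus strand) was at 174, 87.6 and 36.7 FPKM in C4-2B MDVR under DMSO, APO and VER and at 79.2, 23.7 and 42.3 FPKM in CWR22Rv1 cells. The order of the inhibitors was opposite in the lines, VER being the lowest in C4-2B MDVR cells and APO in CWR22Rv1 cells. On the log2 scale TK1 differed from DMSO by -0.99 and -2.25 in C4-2B MDVR cells and -1.73 and -0.90 in CWR22Rv1 cells.

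CAD encodes the protein that carries the first 3 activities of pyrimidine synthesis. CAD (ENSG00000084774, chromosome 2 from 27217390 to 27243943) was at 25.4, 8.72 and 9.77 FPKM in C4-2B MDVR under DMSO, APO and VER and at 26.6, 12.7 and 14.4 FPKM in CWR22Rv1 cells. The DMSO libraries of the lines were close to each other, and the treated libraries were lower in both. CAD differed from DMSO by -1.53 and -1.37 in C4-2B MDVR cells and -1.06 and -0.88 in CWR22Rv1 cells. In all 4 contrasts CAD was further below DMSO than each of the 3 purine enzymes.

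UMPS encodes the protein that closes the pathway by making UMP. UMPS (ENSG00000114491, chromosome 3 from 124730366 to 124749273) was at 44.3, 23.5 and 22.6 FPKM in C4-2B MDVR under DMSO, APO and VER and at 23.8, 21.7 and 16.7 FPKM in CWR22Rv1 cells. The C4-2B MDVR DMSO library stood above the other 5, which lay between 16.7 and 23.8 FPKM. UMPS differed from DMSO by -0.91 and -0.97 in C4-2B MDVR cells. In CWR22Rv1 cells the differences were -0.13 with APO, which is within 1.2-fold, and -0.51 with VER. The ratio of CAD to UMPS was lower with either inhibitor than with DMSO, at 0.574, 0.371 and 0.433 in the C4-2B MDVR libraries and 1.12, 0.585 and 0.860 in CWR22Rv1 cells.

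PPAT encodes the amidotransferase that commits phosphoribosyl pyrophosphate to purine synthesis. PPAT (ENSG00000128059, chromosome 4 from 56393362 to 56435615, minus strand) was at 30.5, 26.0 and 22.7 FPKM in C4-2B MDVR under DMSO, APO and VER and at 28.6, 19.6 and 18.4 FPKM in CWR22Rv1 cells. It had the narrowest range of levels of the 9 genes in C4-2B MDVR cells. PPAT differed from DMSO by -0.23 with APO, within 1.2-fold, and by -0.42 under VER in C4-2B MDVR, and -0.55 and -0.64 in CWR22Rv1 cells.

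PAICS encodes a later enzyme of the pathway with carboxylase and synthetase activities. PAICS (ENSG00000128050, chromosome 4 from 56435741 to 56464579, plus strand) was at 172, 91.0 and 93.9 FPKM in C4-2B MDVR under DMSO, APO and VER and at 118, 92.8 and 69.6 FPKM in CWR22Rv1 cells. It was the most abundant of the 9 transcripts in 5 of the 6 libraries, TK1 being higher in the C4-2B MDVR DMSO library. PAICS differed from DMSO by -0.92 and -0.88 in C4-2B MDVR cells and -0.34 and -0.76 in CWR22Rv1 cells.

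PPAT and PAICS lie head to head, with 125 bases between the ends of their GENCODE genes. That stretch is shown because both genes are transcribed away from it. It lies at chr4:56435616-56435740 on the plus strand of GRCh38.p14, from the PPAT side to the PAICS side, with the 3 GC boxes in capitals.
PPAT-PAICS: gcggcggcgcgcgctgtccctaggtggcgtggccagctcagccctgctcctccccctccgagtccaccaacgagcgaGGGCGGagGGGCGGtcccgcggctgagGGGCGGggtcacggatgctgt
A GC box was found in windows of 7 of the 9 members and for 48.3% of all genes. The E-box CACGTG was found for PPAT and PAICS alone among the 9 and for 8.77% of all genes, and it is 1 site that both windows cover. The ratio of PAICS to PPAT ran from 3.50 to 5.65 over the 6 libraries, and without replicates its spread within a condition is not known. PAICS was 5.65, 3.50 and 4.13 times the level of PPAT in C4-2B MDVR under DMSO, APO and VER and 4.12, 4.74 and 3.79 times in CWR22Rv1 cells.

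GART encodes a protein with 3 activities of the same pathway. GART (ENSG00000159131, chromosome 21 from 33503931 to 33543491, minus strand) was at 67.7, 42.7 and 41.4 FPKM in C4-2B MDVR under DMSO, APO and VER and at 72.2, 66.7 and 57.5 FPKM in CWR22Rv1 cells. The treated libraries of CWR22Rv1 cells stood nearer to their DMSO library than those of C4-2B MDVR cells did. GART differed from DMSO by -0.66 and -0.71 in C4-2B MDVR cells. In CWR22Rv1 cells the differences were -0.11 with APO, within 1.2-fold, and -0.33 with VER. GART overlaps SON on the opposite strand, which was at 77.2, 52.8 and 53.3 FPKM in C4-2B MDVR and 88.0, 52.7 and 56.7 FPKM in CWR22Rv1 cells.

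The groups were compared by their medians. With APO in C4-2B MDVR cells the median log2 difference was -1.31 for dNTP, -1.22 for pyrimidine and -0.66 for purine enzymes. With VER in that line the medians were -2.05, -1.17 and -0.71. In CWR22Rv1 cells they were -1.56, -0.60 and -0.34 with APO and -0.83, -0.70 and -0.64 with VER. Genes compared in the line that averaged 10 FPKM or more over the 6 libraries had medians between -0.03 and 0.03 in the same 4 contrasts. Medians of the other genes of these pathways, given below, did not follow the order dNTP, pyrimidine, purine. Among the members this order held in each contrast, with unequal gaps. The dNTP median lay 0.65 below the purine median with APO and 1.34 below it under VER in C4-2B MDVR, and 1.22 and 0.19 below it in CWR22Rv1 cells. Each dNTP enzyme was below each purine enzyme for VER in C4-2B MDVR and for APO in CWR22Rv1 cells, and these groups overlapped in the other 2 contrasts. Both pyrimidine enzymes were below each purine enzyme only for VER in C4-2B MDVR cells. In the other contrasts UMPS lay among or above the purine enzymes. RRM1 was the dNTP enzyme with the smallest difference in 3 contrasts and TYMS with VER in CWR22Rv1 cells.

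**Figure D3:**
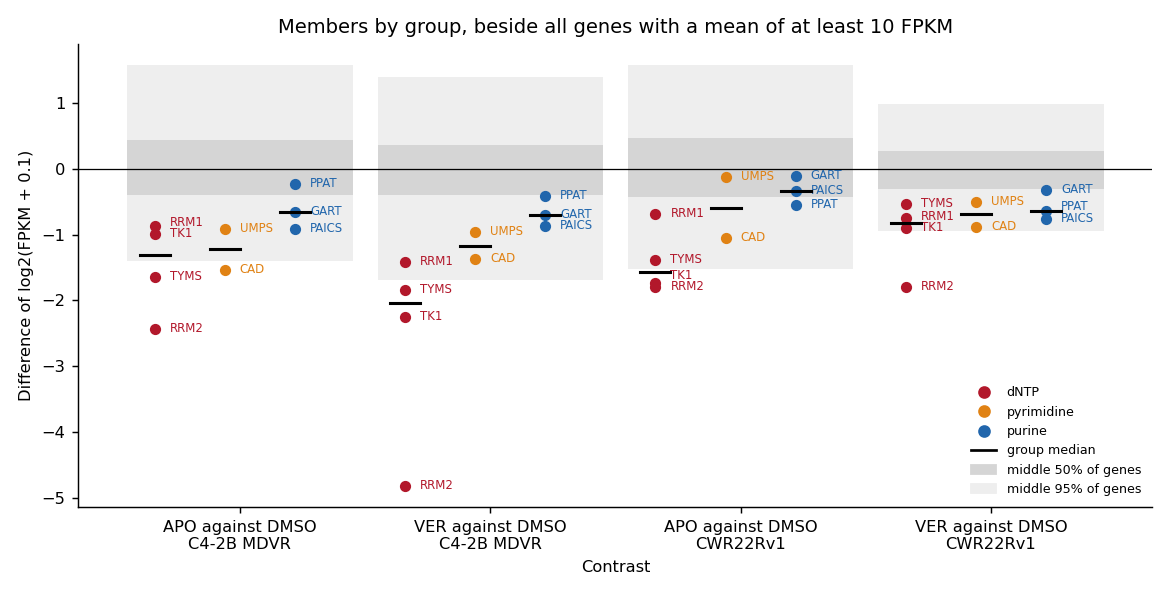
Values of log2(FPKM + 0.1) under each inhibitor minus DMSO for the 9 enzymes, coloured by group, with group medians as black bars. Grey boxes hold the middle 50% and 95% of genes averaging 10 FPKM or more over the 6 libraries. All points are below 0, RRM2 is below the middle 95% in each contrast, and the groups overlap most with VER in CWR22Rv1 cells, where the medians are -0.83, -0.70 and -0.64.

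The summed FPKM of each group shows the same in levels. The 4 dNTP enzymes summed to 394, 162 and 84.5 FPKM in C4-2B MDVR under DMSO, APO and VER, and the 3 purine enzymes to 271, 160 and 158 FPKM. In CWR22Rv1 cells the dNTP enzymes summed to 364, 141 and 188 FPKM and the purine enzymes to 219, 179 and 146 FPKM. The dNTP sum was thus above the purine sum in both DMSO libraries and below it in C4-2B MDVR with VER and in CWR22Rv1 cells with APO. The pyrimidine pair summed to 69.7, 32.2 and 32.4 FPKM in C4-2B MDVR and to 50.4, 34.4 and 31.1 FPKM in CWR22Rv1 cells.

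VER and APO were compared at the same dose and time, which covers 9 genes in each of 2 lines. In C4-2B MDVR cells 3 of the 9 enzymes were called lower with VER than with APO, against 32.5% of all genes, and 0 higher, against 28.5%. These were RRM2 at -2.39, TK1 at -1.25 and RRM1 at -0.55. The pyrimidine and purine enzymes all lay within 1.2-fold, between -0.19 and 0.16, but CAD passed it at 0.31 with TPM and at 0.34 without mitochondrial genes. In CWR22Rv1 cells 2 were called lower with VER, UMPS at -0.38 and PAICS at -0.41, against 34.5% of all genes. With TPM 4 were lower there, PPAT at -0.27 and GART at -0.39 being the added ones. TPM also moved the median of genes above 1 FPKM by -0.18 in this comparison, and the share of all genes lower with it was not counted. In that line 2 were called higher, TYMS at 0.86 and TK1 at 0.83, against 37.3%. RRM2 was at the same level with both compounds there, 30.2 FPKM. With 1 library each, no interval can be given for any of these differences, and a value within 1.2-fold does not show that the compounds act alike.

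**Figure D4:**
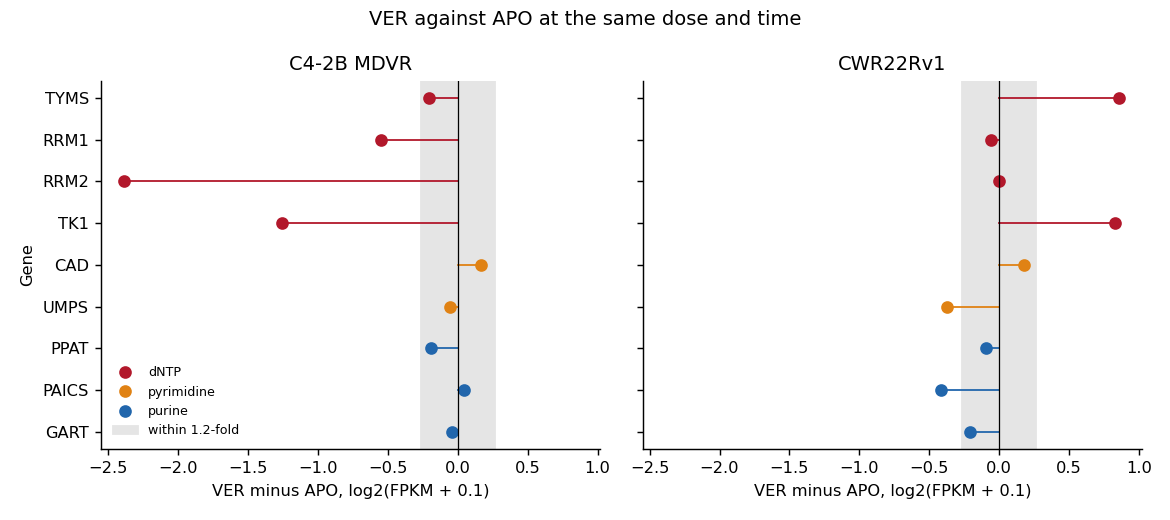
Difference of log2(FPKM + 0.1) between VER and APO for each enzyme in each line, with the range within 1.2-fold shaded. TK1 is at -1.25 in C4-2B MDVR and at 0.83 in CWR22Rv1 cells, and RRM2 is at -2.39 in C4-2B MDVR cells and close to 0 in CWR22Rv1 cells.

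Under DMSO 6 of the 9 enzymes differed between the lines past 1.2-fold. Of these, 3 were called higher in CWR22Rv1 than in C4-2B MDVR cells, RRM2 at 0.42, TYMS at 0.38 and RRM1 at 0.31, which was 0.25 with TPM, against 43.2% of all genes compared. The other 3 were called lower, TK1 at -1.14, UMPS at -0.89 and PAICS at -0.55, against 39.2%. CAD, PPAT and GART lay within 1.2-fold. By level the C4-2B MDVR DMSO library ran from TK1 at 174 FPKM to CAD at 25.4 FPKM and the CWR22Rv1 DMSO library from PAICS at 118 FPKM to UMPS at 23.8 FPKM. Without replicates, neighbours in these orders, such as TK1 and PAICS in C4-2B MDVR or RRM1 and TK1 in CWR22Rv1 cells, cannot be separated. The lines also differ in their maintenance with enzalutamide, which cannot be told apart from the line.

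Other genes of each pathway moved less uniformly. Of 14 other genes of dNTP and thymidylate metabolism, 7 were lower and 2 higher with APO in C4-2B MDVR cells, 5 lower and 3 higher with VER, 6 lower and 4 higher with APO in CWR22Rv1 cells, and 6 lower and 1 higher with VER. Their medians for APO and VER were -0.22 and -0.13 in C4-2B MDVR cells and -0.08 and -0.23 in CWR22Rv1 cells. With TPM the median under APO in CWR22Rv1 cells was 0.03. RRM2B had the highest mean of the list. Of all genes compared, 35.4%, 34.9%, 39.2% and 32.3% were lower in the same order of contrasts, and 37.7%, 35.6%, 35.6% and 32.1% higher. These shares also apply to the lists that follow. Counts such as 5 of 14 lower with VER in C4-2B MDVR cells are near them.

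Of 7 other pyrimidine genes, 6 passed the filter in C4-2B MDVR cells, where 5 were lower and 1 higher with either inhibitor. In CWR22Rv1 cells 2 were lower and 2 higher with APO, and 4 lower and 1 higher with VER. Medians of this list for APO and VER were -0.68 and -0.56 in C4-2B MDVR cells and -0.11 and -0.60 in CWR22Rv1 cells. CTPS1, which makes CTP from UTP, was at 51.4, 25.1 and 21.9 FPKM in C4-2B MDVR and 42.5, 30.9 and 20.0 FPKM in CWR22Rv1 cells. DHODH, the mitochondrial step between CAD and UMPS, had log2 differences of -0.59, -0.49, -0.69 and -1.01 in the order C4-2B MDVR with APO, with VER, CWR22Rv1 with APO and with VER, so CAD, DHODH, UMPS and CTPS1 were all below 0 in every contrast. UPP1, uridine phosphorylase, which breaks uridine down, differed from these, at 2.92, 32.8 and 9.64 FPKM in C4-2B MDVR and 6.36, 26.8 and 6.49 FPKM in CWR22Rv1 cells. It was 3.44 higher with APO in C4-2B MDVR cells and 2.06 higher in CWR22Rv1 cells on the log2 scale, against 1.69 and 0.03 with VER.

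Of 10 other purine synthesis genes, 7 were lower and 1 higher with APO in C4-2B MDVR cells, 8 and 1 with VER, 5 and 3 with APO in CWR22Rv1 cells, and 6 and 0 with VER. Medians of this list were -0.39 and -0.59 in C4-2B MDVR cells and -0.28 and -0.40 in CWR22Rv1 cells. In each contrast they were further below 0 than the medians of the other dNTP genes. PFAS, the step between activities of GART, had the lowest mean, with differences of -1.13 and -1.04 in C4-2B MDVR cells, and -1.58 and -0.64 in CWR22Rv1, below all 3 purine members in 3 of the 4 contrasts. ADSL, which acts after PAICS, had the highest, at 80.5, 101 and 68.4 FPKM in C4-2B MDVR and 49.2, 76.9 and 51.8 FPKM in CWR22Rv1 cells. ATIC, which completes IMP, had differences of -0.39, -0.50, 0.04 and -0.50 in the same order of contrasts, and IMPDH2, which leads from IMP towards GMP, -0.39, -0.56, 0.33 and -0.26. With APO in CWR22Rv1 cells PFAS, PPAT and PAICS were thus called lower, and ADSL and IMPDH2 higher. IMPDH1, of the same list, was at 64.1 FPKM with DMSO and 32.2 FPKM with APO in that line. Rescaled without mitochondrial genes, 2 rather than 3 genes of the list were called higher in this contrast.

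Salvage genes were called in both directions as well, with counts to be read beside the same shares of all genes. Of 11 genes of purine salvage and breakdown, 10 passed the filter in C4-2B MDVR cells, and 9 in CWR22Rv1, and 5 were lower in each of the 4 contrasts, beside 2, 2, 2 and 1 higher. HPRT1, which recovers hypoxanthine and guanine, had log2 differences of -0.76 and -0.88 in C4-2B MDVR cells, and -0.46 and -0.48 in CWR22Rv1. PNP, purine nucleoside phosphorylase, had the lowest mean, at 67.6, 18.3 and 26.6 FPKM in C4-2B MDVR and 65.5, 32.8 and 34.5 FPKM in CWR22Rv1 cells. NT5C2, a nucleotidase, had the highest, with log2 differences of 0.19 and 0.21 in C4-2B MDVR cells, and 0.77 and 0.54 in CWR22Rv1.

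Serine and one-carbon enzymes, which supply carbon units to TYMS, GART and ATIC, were mostly higher. Of 9 genes, 7 were called higher with either inhibitor in C4-2B MDVR cells and with APO in CWR22Rv1 cells, and 6 with VER in CWR22Rv1 cells. The remaining 2 called lower throughout were the cytosolic enzymes MTHFD1 and SHMT1. MTHFD1, which makes the formyl donor of purine synthesis, was at 98.3, 41.5 and 43.5 FPKM in C4-2B MDVR and 61.7, 25.6 and 30.2 FPKM in CWR22Rv1 cells. ALDH1L2, a mitochondrial folate enzyme, had the highest mean of the list, at 1.38, 9.49 and 13.2 FPKM in C4-2B MDVR and 15.6, 41.2 and 31.1 FPKM in CWR22Rv1 cells.

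**Figure D5:**
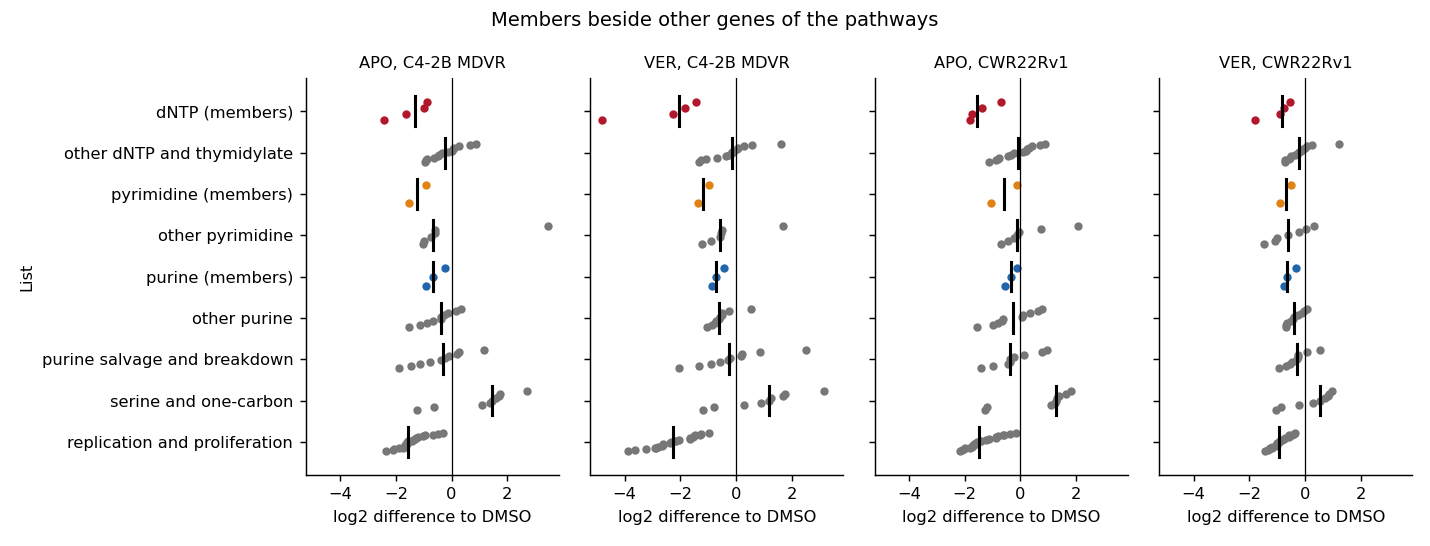
Log2 differences to DMSO in the 4 contrasts for the members and for the other lists, with 1 point per gene that passed the filter and list medians as black bars. The medians of the replication list, -1.57, -2.27, -1.50 and -0.92 from left to right, are near those of the dNTP members, while the serine and one-carbon list is mostly above 0.

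Genes of DNA replication and proliferation were lower beside the dNTP enzymes. Of 22 such genes 22 were called lower in 3 contrasts and 21 with APO in CWR22Rv1 cells. Their medians were -1.57 with APO and -2.27 under VER in C4-2B MDVR cells and -1.50 and -0.92 in CWR22Rv1 cells, beside dNTP medians of -1.31, -2.05, -1.56 and -0.83. MKI67, the proliferation antigen, had the lowest mean of the list, with differences of -1.75 and -3.87 in C4-2B MDVR cells, and -1.66 and -1.43 in CWR22Rv1. PCNA, the sliding clamp of the replication fork, was at 173, 56.5 and 71.2 FPKM in C4-2B MDVR and 208, 71.1 and 139 FPKM in CWR22Rv1 cells. RFC4, a subunit of the clamp loader, had the highest mean, with differences of -0.66, -1.46, -0.64 and -0.41. In bulk RNA fewer cells in S phase and less RNA per cell cannot be told apart, and the part of this in the dNTP values was not tested.

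The genes with patterns closest to each group were named by the root mean square distance of their 4 log2 differences from the mean of the group, among 7474 protein-coding genes outside the lists with a mean of 10 FPKM or more. The 3 closest to the dNTP enzymes were PCLAF at a distance of 0.14, H2AX at 0.19 and ATAD2 at 0.19. PCLAF, which binds PCNA, had differences of -1.39, -2.42, -1.60 and -0.97. Closest to the pyrimidine pair were SMARCA4 at 0.07, ENTR1 at 0.08 and PUS1 at 0.09, and closest to the purine enzymes EIF4E at 0.04, CNP at 0.05 and NOC4L at 0.06. EIF4E, the cap-binding initiation factor, had differences of -0.57, -0.69, -0.28 and -0.56. Likeness over 4 contrasts that share 2 DMSO libraries is a description of these libraries.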

How the data were processed

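Poly(A) RNA of 6 libraries was sequenced in paired ends. The labels name a KAPA stranded kit and the paper a TruSeq kit. The authors aligned reads with HISAT to GRCh38, ran Cufflinks and Cuffnorm, and deposited for every gene an FPKM value, scaled between libraries. Tool versions and the annotation release are not given in the sources used here.

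Symbols were taken from a list of current gene names and, for genes without one, from GENCODE 29. Positions were taken from GENCODE 29 (57047 of 60658 identifiers matched) and promoters from RefSeq (GRCh38.p14). Log2 differences used a pseudocount of 0.1, which understates changes of low genes, and genes above 0.1 FPKM in at least 1 of 3 libraries of a line, 20122 in C4-2B MDVR and 21608 in CWR22Rv1. With 1 library per condition no test was made. Whole reads were not recovered, so counting error was not computed. Ratios of low FPKM between libraries put the depth at 1.14 to 1.63 times that of the C4-2B MDVR DMSO library, with 34.3% to 45.5% of low genes near the commonest ratio, so this is approximate.

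The members and lists were chosen with earlier results of these data known. Named genes are the 9 members, 10 pathway genes set by name, the gene with the highest and the lowest mean difference of each other list (mean of at least 1 FPKM), and the 3 genes closest to each group. Some genes covered by this rule are not reported here. Alternatives were pseudocounts of 0.01 and 1, 3 rescalings, thresholds of 1.5-fold and 2-fold, and 4 choices of genes compared. The functions were run on copies of the C4-2B MDVR DMSO library with set changes and no added noise. That checks the code and cannot show how often calls from single libraries are wrong. The software was Python 3.11.15 with matplotlib 3.10.9, scipy 1.17.1, numpy 2.4.6 and pandas 2.3.3.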

Additional observations from a re-analysis of the deposited data

Results flagged for a closer look

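TK1 differed between the lines in the comparison of the inhibitors. It was lower with VER than with APO in C4-2B MDVR cells, at -1.25 on the log2 scale, and higher in CWR22Rv1 cells, at 0.83. It was the only one of the 9 enzymes past 1.2-fold in opposite directions. How many of all genes were so was not counted, so the single case among 9 cannot be weighed. Of the 22 replication genes, 18 were lower and 1 higher with VER than with APO in C4-2B MDVR cells. In CWR22Rv1 cells 3 of them were lower and 15 higher. The difference between the lines was not tested, since each condition has 1 library.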

How the results depend on the processing

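Within a line each condition has 1 library, so no alternative leaves a library out, and an analysis paired by line, which would treat the lines as replicates, was not made. Of 180 recomputed values of the 9 enzymes against DMSO, 175 stayed on the same side of 1.2-fold, 4 passed it newly, 1 dropped within it and 0 reversed. All 5 came from rescaling to the same sum (TPM, with or without mitochondrial genes), which moved the median of genes above 1 FPKM by as much as -0.16 in C4-2B MDVR cells, and -0.15 in CWR22Rv1 against DMSO, and by -0.18 for VER against APO in CWR22Rv1 cells. With TPM, PPAT under APO in C4-2B MDVR cells went to -0.38, and PAICS and the purine median under APO in CWR22Rv1 cells to -0.23. Without mitochondrial genes PPAT went to -0.39, and UMPS and GART under APO in CWR22Rv1 cells to -0.29 and -0.27. For VER against APO in CWR22Rv1 cells TPM gave medians of 0.23 for dNTP, -0.28 for pyrimidine and -0.39 for purine enzymes. Without mitochondrial genes CAD was called higher in that comparison, at 0.27. At 2-fold in the deposited FPKM the enzymes called lower numbered 3 for APO and 5 for VER in C4-2B MDVR cells. In CWR22Rv1 cells they numbered 4 and 1. All genes called lower numbered, in the same order, 2679, 2677, 3623 and 1928, against 7118, 7023, 8477 and 6979 at 1.2-fold. The median ratio and both pseudocounts changed no call of the 9 enzymes against DMSO. Under the rescalings, added for the other lists after seeing the data, the replication list kept 21 to 22 genes lower and the serine and one-carbon list 5 to 7 higher. The other lists moved more, and under APO in CWR22Rv1 cells the other dNTP genes ran from 2 to 6 higher and 5 to 7 lower, and the other pyrimidine median from -0.26 to 0.005. Purine salvage genes lower under VER in that line ran from 5 to 7. Counting error was not computed, since whole reads were not recovered from FPKM, and no precision is given for low values such as RRM2 at 2.70 FPKM.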
